A study of Mus musculus with 2 samples.

Results

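The m6A sites listed by nanopore tools were described for 8 genes of LIF and Stat3 signalling (Lifr, Il6st, Jak1, Ptpn11, Stat3, Socs3, Pim1 and Pim3) in wild-type (WT) and Mettl3 knockout (KO) mouse embryonic stem cells (mESCs). Every unique genome position and strand that lay within an exon of 1 of these genes on the gene's own strand was taken, which gave 174 positions of the 160430 held by all lists. Positions were found in 7 of the 8 genes, and Lifr had none. Over the series 10912 genes had a listed position in an exon, and their share of all annotated genes was not computed. The leukaemia inhibitory factor LIF keeps mESCs in the undifferentiated state. It binds the receptor Lifr, which pairs with the signal-transducing chain Il6st (gp130), and the bound kinase Jak1 then phosphorylates the receptor and the transcription factor Stat3. The phosphatase Ptpn11 (SHP2) links the same receptor to the Ras-Erk arm. Among the targets of Stat3 are Socs3, an inhibitor that acts back on the receptor and its kinase, and the serine/threonine kinases Pim1 and Pim3. m6A is a methylated adenosine that Mettl3 writes into mRNA, mostly within RRACH 5-mers, in which R is a purine and H is any base except G.

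Both groups were mouse 129 ES cells, WT or KO for Mettl3. Neither Mettl3 allele of the KO cells kept exons 5 to 7, where drug resistance cassettes had been put in by genome editing, so these cells had also been through selection with puromycin and hygromycin. How many colonies the KO RNA came from is not given in the sources used here. Poly(A) RNA of each condition went into 1 library and was read directly, without reverse transcription, and such reads start from the 3′ end of each RNA. The single-mode callers Tombo, MINES, Nanom6A, m6Anet, ELIGOS and Epinano, together with xPore, which fits both libraries together, came with separate lists for WT and KO. From Nanocompore, DiffErr and DRUMMER there was a single list apiece, made by comparing WT with KO, and these were counted on the side of WT. The lists give positions and no score, modified fraction or coverage. A position missing from a list may therefore have had too few reads there, and fewer reads of a transcript and fewer modified bases cannot be told apart. No test between the libraries was possible, and every interval below is a 95% Wilson interval that covers counting error only.

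The labels were set beside the listings of Mettl3 and of cell type genes. Exons 5 to 7 of Mettl3 held 2 WT positions and 0 KO positions, and the whole gene held 13 and 5. So few positions cannot check the KO label, and the cell type genes cannot tell WT from KO. All 8 ES cell genes looked up (Pou5f1, Sox2, Nanog, Zfp42, Esrrb, Dppa5a, Tdgf1 and Utf1) had listed positions in both libraries, while 4 of 6 fibroblast genes had none, Col1a1 had 3 KO positions and Thy1 had 3 WT positions and 1 KO position. Of the endoderm genes, Sox17 had 12 WT positions and 0 KO positions, and Gata6, Gata4 and Dab2 had none. Otx2 of the epiblast genes had 15 WT and 6 KO positions, and Fgf5 and T had none.

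The sequences below show the positions on which the results turn, each read 5′ to 3′ on the strand of its gene from GRCm38, with the listed 5-mers in capitals. Both Pim1 stretches are shown because they hold the only positions of the 8 genes in a comparison list. The other stretches were chosen after their values were seen: Socs3 because its 5-mers were listed by many tools in WT and by none in KO, Jak1 and Stat3 because they hold a position with the most tools in their gene, and Pim3 because its position was listed by more tools in KO than in WT.
Pim1, 154 nt past the stop codon, chr17:29494889-29494909, + strand: agggaaagAGACTacttcact
Pim1, 784 nt past the stop codon, chr17:29495519-29495539, + strand: ctgcaaaaGGACTgtagatga
Socs3, 90 and 71 nt before the stop codon, chr11:117967621-117967650, - strand: ggaAGACTgtcaacggccacctGGACTcct
Socs3, 270 and 290 nt past the stop codon, chr11:117967261-117967290, - strand: gtgGGACAatacctttgacaagcGGACTct
Jak1, 357 nt past the stop codon, chr4:101153130-101153150, - strand: aaacttgtGGACTtggctgac
Stat3, 1666 nt past the stop codon, chr11:100887031-100887051, - strand: agcccctgGAACTgcccactt
Pim3, 790 nt before the stop codon, chr15:88862931-88862951, + strand: tcgccgacGGACTcccggtga
The sets differ in the 5-mer as well as in support: GGACT stands in Pim1, Socs3, Jak1 and Pim3, whereas the Stat3 position with the most tools lies in GAACT.

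Across the 8 genes, 134 positions were in WT or comparison lists and 111 in KO lists. Of these, 71 were in both, and 40 were in KO lists only, which is 23.0% of the 174 positions against 19.6% over all positions of the series. Of the 134, 63 were in no KO list, a share of 47.0% (38.8 to 55.4), against 41.0% over all 129045 WT or comparison positions. Socs3 carried much of that difference: without it, 44 of 111 positions were in no KO list, a share of 39.6% (31.0 to 48.9). The genes spread from 17.4% (6.98 to 37.1) in Pim1 to 82.6% (62.9 to 93.0) in Socs3, each with 23 WT or comparison positions. These intervals did not overlap, but the 2 genes were taken as the lowest and highest shares. Positions of 1 gene share reads and several tools share an alignment, so the intervals are no test between genes.

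**Figure D1:**
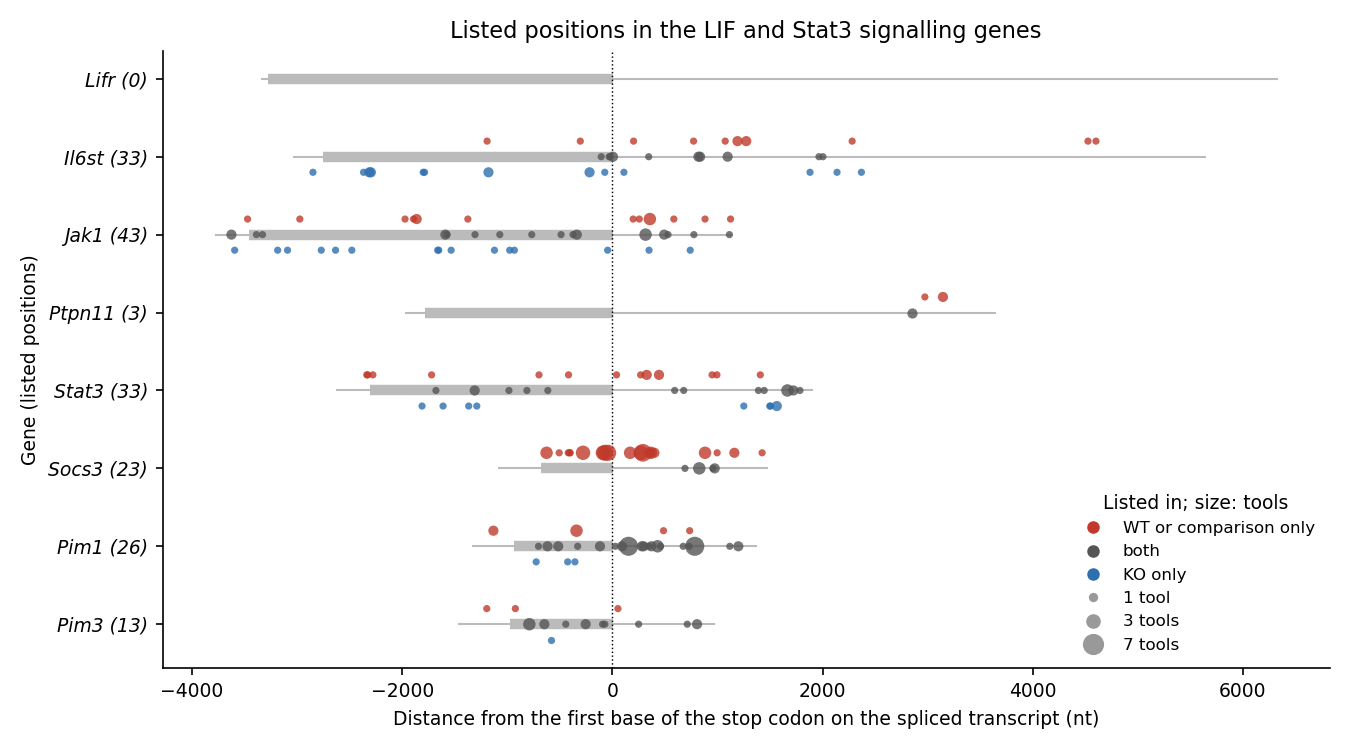
Listed positions of the 8 genes by spliced distance in nt from the start of the stop codon, with the coding sequence as a thick bar. Colours give the libraries, and point size is the larger of the numbers of WT or comparison tools and KO tools; 19 of the 23 Socs3 positions were in WT lists only, and 19 of the 26 Pim1 positions were in both libraries.

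Support, meaning how many of the 10 tools named a position in a WT or comparison list, was low for most members. Of the 134 positions, 86 were listed by 1 tool, 30 by 2 tools and 18 by at least 3 tools. The 18 make up 13.4%, against 12.6% over all WT or comparison positions. Positions with at least 5 tools numbered 5, against 3.28% over all positions, and lay in Socs3 (3) and Pim1 (2). A comparison list held 2 of the 134 positions, both in Pim1, against 2.45% over all.

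The receptor chains, which come first in the pathway, differed in whether they were listed. Lifr (chr15:7090614-7197489, + strand) had no listed position in any of the 17 lists, although its coding transcript of 9655 nt holds 147 RRACH positions. Il6st (chr13:112464070-112510086, + strand), whose transcript of 8678 nt holds 118 RRACH positions, had 33 listed positions, 20 in WT and 23 in KO, with 10 in both. Lifr and Il6st act as 1 receptor, yet only the transcript of Il6st was represented in the lists. Whether Lifr reads reached the minimum that the tools needed was not tested, since the lists give no coverage.

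In Il6st, as in Jak1, Tombo listed more positions in KO than in WT and Epinano fewer. Over the series, Tombo had 0.9045 KO positions per WT position and Epinano 0.339. In Il6st Tombo listed 6 positions in WT and 20 in KO, with 4 in both. MINES, which takes values from Tombo as input, listed 1 and 6. Epinano, which reads base-calling errors, had 17 positions in WT and 2 in KO, of which none was shared. The coding sequence held 5 WT and 11 KO positions of all tools, and the 3′ UTR held 15 and 11. No Il6st position was listed by more than 2 tools in WT. The 4 with 2 tools were all listed by Tombo and Epinano and lay between 835 and 1274 nt past the stop codon, at positions 112505278 (AGACT), 112505540 (AGACA), 112505634 and 112505717 (both GGACT) of chromosome 13, the last of which was tied with the others and added after its values were seen. The former pair was also in the KO list of Tombo and the latter pair in no KO list.

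Jak1 (chr4:101152367-101265282, - strand), the kinase bound to the receptor, had the most listed positions of the 8 genes: 43 in all, 28 in WT and 31 in KO, with 16 in both. Of its WT positions, 12 were in no KO list, a share of 42.9% (26.5 to 60.9). Of the 43 positions, 27 lay in the coding sequence, which holds 66 of the 92 RRACH positions of the transcript. Of the 28 WT positions, 17 lay within 100 nt of a junction between the 25 exons, and 45.4% of WT or comparison positions did so over the series. Tombo listed 18 positions in WT and 23 in KO, 12 of them in both, and Epinano 14 and 2. m6Anet listed 1 position in WT and 4 in KO. The positions with the most tools were a pair of GGACT 5-mers in the last exon, 316 and 357 nt past the stop codon (101153181 and 101153140 of chromosome 4), each listed in WT by Tombo, Epinano and xPore. The position at 316 nt was also in the KO list of m6Anet, and that at 357 nt was in no KO list. A further GGACT 493 nt past the stop codon (101153004) was listed by Tombo and Epinano in WT and by m6Anet in KO, so of these 3 positions m6Anet listed 2 in KO and none in WT.

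Ptpn11 (chr5:121130533-121191397, - strand), the phosphatase, had 3 listed positions among 80 RRACH positions of its transcript. All 3 were in WT lists, in the last exon, and between 2856 and 3146 nt past the stop codon. The GGACA at 2856 nt (121131314 of chromosome 5) was listed by Tombo and MINES in both libraries. The AAACC at 3146 nt (121131024) was listed by Tombo and Epinano, and the GAACC at 2974 nt (121131196) by Epinano, in WT only. The listed positions thus began far down the 3′ UTR of 3635 nt, and the coding sequence, with 38 RRACH positions, had none.

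Stat3 (chr11:100885098-100939540, - strand), the transcription factor at the centre of the pathway, had 33 listed positions, 25 in WT and 20 in KO, with 12 in both. The share of WT positions in no KO list was 52.0% (33.5 to 70.0), and every one of the 12 shared positions was listed by the same tool in both libraries. Tombo listed 16 positions in WT and 12 in KO and Epinano 11 and 10, so these pipelines gave Stat3 nearly all of its listings. Nanom6A listed 2 positions, both in WT, and m6Anet, ELIGOS and xPore listed none. Positions lay along the whole transcript of 24 exons, with 9 WT and 9 KO positions in the coding sequence and 14 and 11 in the 3′ UTR. The position with the most tools, GAACT 1666 nt past the stop codon (100887041 of chromosome 11), was listed by Tombo, Nanom6A and Epinano in WT and by Tombo and Epinano in KO. Next came 3 positions with 2 tools each. AGACA at 327 nt (100888380) and GGACT at 444 nt (100888263) were listed by Tombo and Epinano in WT and absent from KO. GGACC 1310 nt before the stop codon (100903470), tied with them and added after its values were seen, was listed by Tombo and MINES in WT and by Tombo in KO.

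Socs3 (chr11:117966079-117970047, - strand), the feedback inhibitor, had 23 listed positions, all of them in WT and 4 of them also in KO, and no position in KO lists only. WT tools listed these positions 59 times and KO tools 5 times. Each of the 6 tools that listed Socs3 in WT listed fewer positions in KO: Tombo 13 and 3, MINES 4 and 1, Nanom6A 10 and 0, m6Anet 14 and 0, ELIGOS 9 and 0, and Epinano 9 and 1. That direction held for each of them over the series too. KO positions per WT position there were 0.9045 for Tombo, 0.703 for MINES, 0.831 for Nanom6A, 0.58 for m6Anet, 0.259 for ELIGOS and 0.339 for Epinano. xPore and the 3 comparison tools listed none. All 23 positions lay in exon 2, which makes up 2240 of the 2552 nt of the transcript and holds 33 of its 36 RRACH positions. Of the 11 positions with at least 3 tools in WT, 10 were in no KO list, a share of 90.9% (62.3 to 98.4) against 26.3% of positions with that support over the series.

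The best supported position of Socs3 was GGACT 290 nt past the stop codon (117967265 of chromosome 11), which all 6 tools listed in WT. In the sequence printed above, it follows a GGACA 20 bases upstream that was listed by 4 tools. The GGACT 71 nt before the stop codon (117967626) was listed by Tombo, Nanom6A, m6Anet, ELIGOS and Epinano. None of these 3 positions was in a KO list.

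The KO listings of Socs3 all lay in the 3′ UTR, between 691 and 974 nt past the stop codon. The coding sequence, with 12 RRACH positions, had 9 WT positions and no KO position, and the 3′ UTR, with 21, had 14 and 4. Tombo, which listed nearly as many positions in KO (68039) as in WT (75219) over the series, supplied 3 of the 4. The 4 positions listed in KO were AGACA at 691 nt and AGACT at 827 nt (Tombo), AGACC at 957 nt (Epinano) and AGACT at 974 nt (Tombo and MINES). These 4 positions lay 502 to 785 nt from the end of the transcript, and 3 positions nearer to the end, at 479, 315 and 51 nt from it, were in WT lists only. The number of Socs3 reads in each library is not in the lists.

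**Figure D2:**
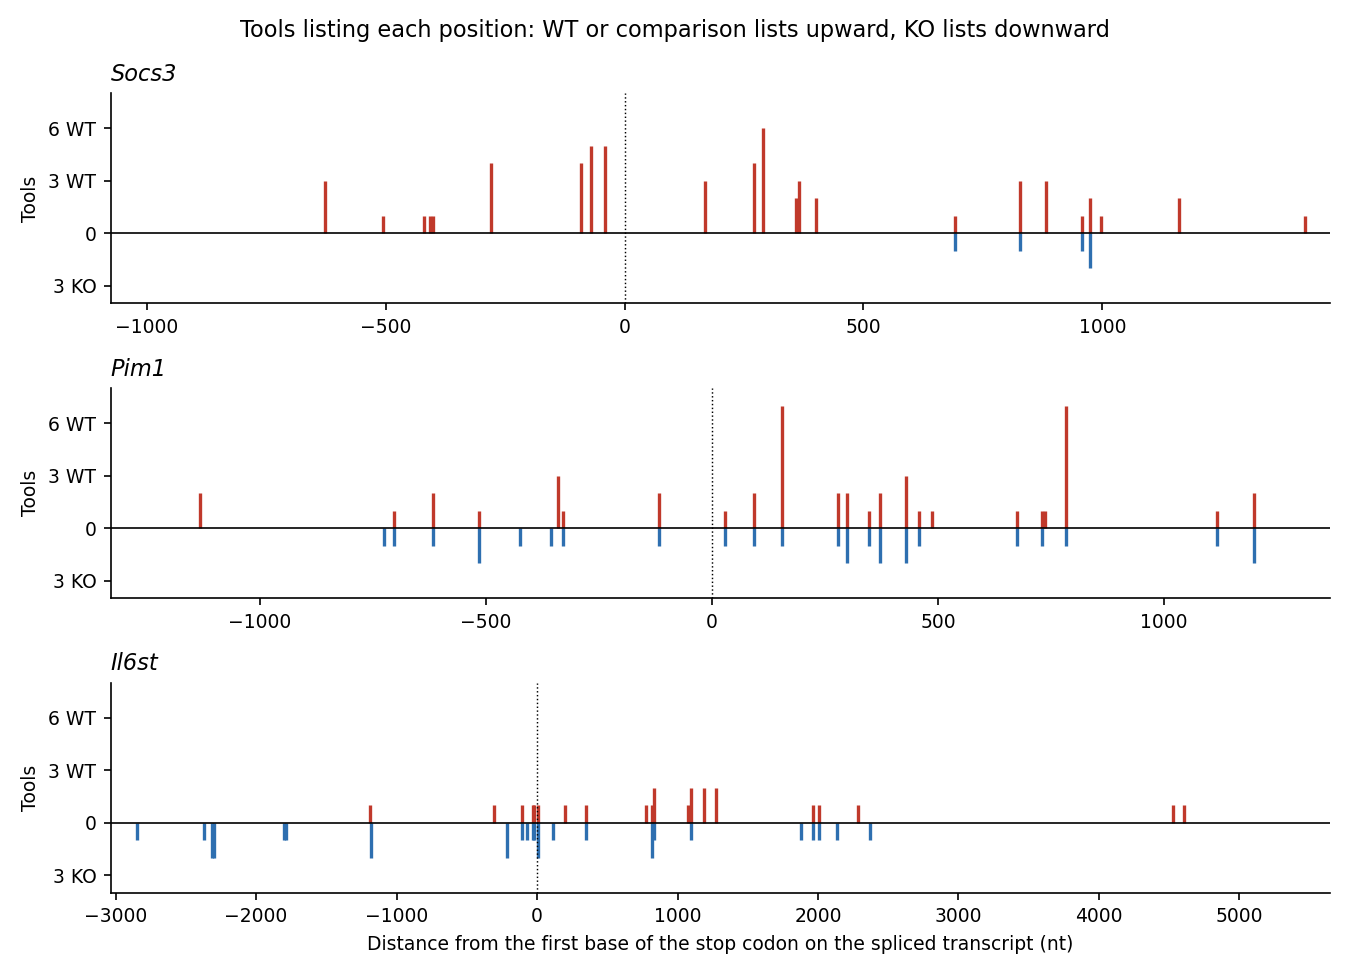
Tools naming each position of Socs3, Pim1 and Il6st in WT or comparison lists (upward, red) and in KO lists (downward, blue), by distance in nt from the start of the stop codon (dotted line). Socs3 reached 6 tools in WT and its 4 KO positions lay between 691 and 974 nt, both Pim1 positions with 7 tools also had 1 KO listing, and Il6st had KO listings over its coding sequence.

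Pim1 (chr17:29490753-29496112, + strand), a kinase that promotes survival and growth, shared most of its positions between the libraries. Each of the 6 tools that listed it in WT listed fewer positions in KO, as each of them did over the whole series. Pim1 had 26 listed positions, 23 in WT or comparison lists and 22 in KO, with 19 in both, all 19 by the same tool. Tombo listed 14 positions in WT and 11 in KO, m6Anet 11 and 8, Nanom6A 9 and 5, Epinano 5 and 2, xPore 4 and 1, and ELIGOS 2 and 0. Both positions of the 8 genes in a comparison list were here: AGACT 154 nt (29494899 of chromosome 17) and GGACT 784 nt (29495529) past the stop codon, in exon 6, the last. Nanocompore listed each of them, and DiffErr and DRUMMER listed neither. Each was also listed in WT by Tombo, Nanom6A, m6Anet, ELIGOS, Epinano and xPore, 7 tools in all. Each also had 1 KO listing, by Tombo at 154 nt and by m6Anet at 784 nt.

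Next by support in Pim1 were a pair of GGACT positions with 3 tools each. One lay 430 nt past the stop codon and was also in 2 KO lists. The other, 341 nt before the stop codon (29492023) and 8 nt from an exon junction in exon 4, was listed by Tombo, m6Anet and xPore in WT and was in no KO list. Of the 4 Pim1 positions with at least 3 tools, the latter was the only one absent from every KO list. Positions that at least 2 tools each listed in both libraries numbered 4 in Pim1 and 8 in all 8 genes, which is 11.3% of the 71 member positions in both libraries against 20.1% of such positions over the series. The 4 in Pim1 were AGACT at 298 nt (Tombo and m6Anet), AAACT at 371 nt (Nanom6A and xPore), GGACT at 430 nt and AAACA at 1199 nt past the stop codon (both by Tombo and Nanom6A). No position of the 8 genes was listed by more than 2 tools in both libraries.

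Pim3 (chr15:88862186-88865726, + strand), a kinase of the same family, had 13 listed positions among only 20 RRACH positions. WT lists held 12 and KO lists 10, with 9 in both, and 3 of the 12, a share of 25.0% (8.89 to 53.2), were in no KO list. No position was listed by more than 2 tools in WT. The GGACT 790 nt before the stop codon (88862941 of chromosome 15), 6 nt from a junction in exon 2, was listed by Tombo and Nanom6A in WT and by these and m6Anet in KO. The GGACT 647 nt before it (88863264) was listed by m6Anet and ELIGOS in WT and by m6Anet in KO, and the GGACA 254 nt before it (88864424) by Tombo and Nanom6A in WT and by Tombo in KO. Pim1 and Pim3 thus shared most of their listed positions between the libraries, whereas Socs3, the other Stat3 target, shared few.

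The share of WT positions that a tool did not list in its own KO list was set beside the share over the whole list of that tool. For Tombo, 32 of 75 member positions were not in its KO list, 42.7% (32.1 to 53.9) against 40.3%. For Epinano the count was 51 of 59, 86.4% (75.5 to 93.0) against 83.5%, and for xPore 5 of 7, 71.4% (35.9 to 91.8) against 75.1%. These shares lay near those of the whole lists. For m6Anet it was 22 of 30, 73.3% (55.6 to 85.8) against 65.6%, for MINES 8 of 10, 80.0% (49.0 to 94.3) against 59.8%, and for ELIGOS all 12 of 12, with a lower bound of 75.8%, against 88.5%. For Nanom6A it was 17 of 23, 73.9% (53.5 to 87.5) against 34.6%. The interval held the share of the whole list for each tool except Nanom6A, and 10 of the 17 Nanom6A positions were in Socs3.

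**Figure D3:**
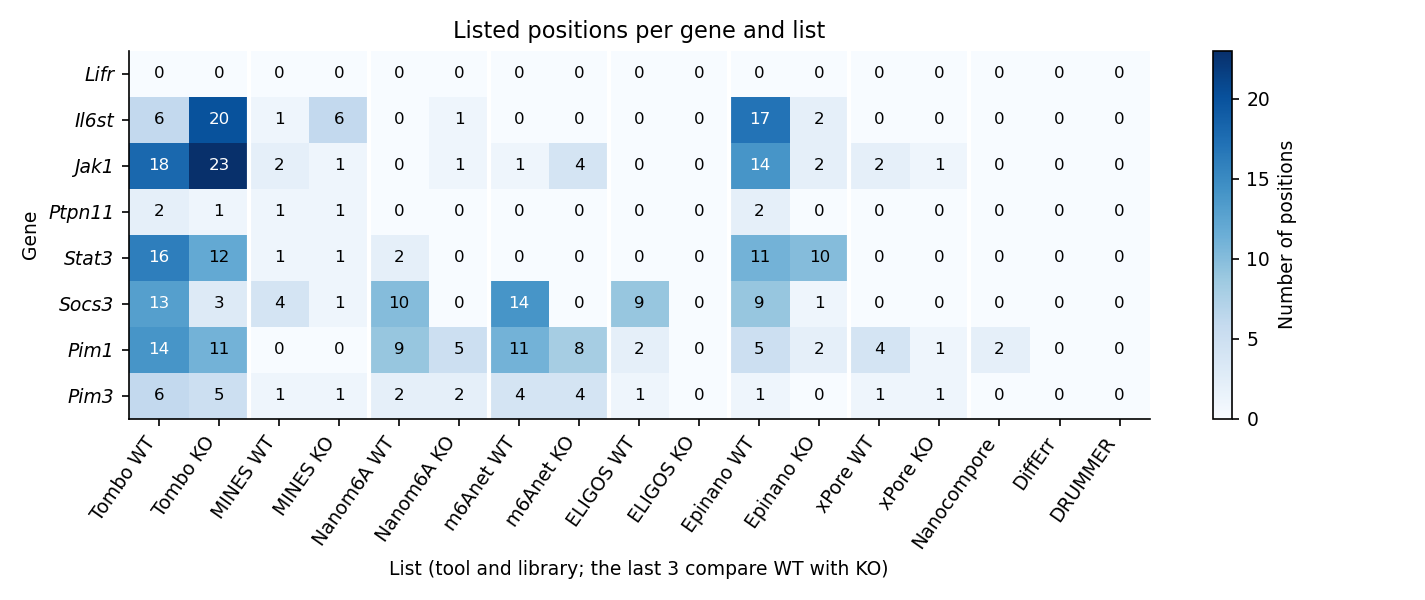
Number of listed positions of each gene (rows) in each of the 17 lists (columns), with colour and printed number both giving the count. Lifr is at 0 throughout, Tombo gave Il6st 6 positions in WT and 20 in KO, and the Socs3 row holds 0 to 3 positions in every KO list.

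The genes were also compared by how much of their RRACH content was listed, which takes the length of the transcript into account. In WT or comparison lists the share was 63.9% (47.6 to 77.5) in Socs3, 60.0% (38.7 to 78.1) in Pim3 and 53.5% (38.9 to 67.5) in Pim1. It was 35.7% (25.5 to 47.4) in Stat3, 30.4% (22.0 to 40.5) in Jak1, 16.9% (11.2 to 24.7) in Il6st and 3.75% (1.28 to 10.5) in Ptpn11. Over 10041 coding genes with a listed position the share was 25.4%. In KO lists it was 51.2% in Pim1 and 50.0% in Pim3, against 21.2% over all genes, and 11.1% in Socs3. The Stat3 targets thus had the 3 highest shares in WT, but the intervals of Pim1 and Pim3 overlapped those of Stat3 and Jak1. Among neighbours in that order, only Il6st and Ptpn11 had intervals that did not overlap. The 3 targets also have shorter transcripts, of 2427 to 2698 nt, and their part in this order was not tested.

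**Figure D4:**
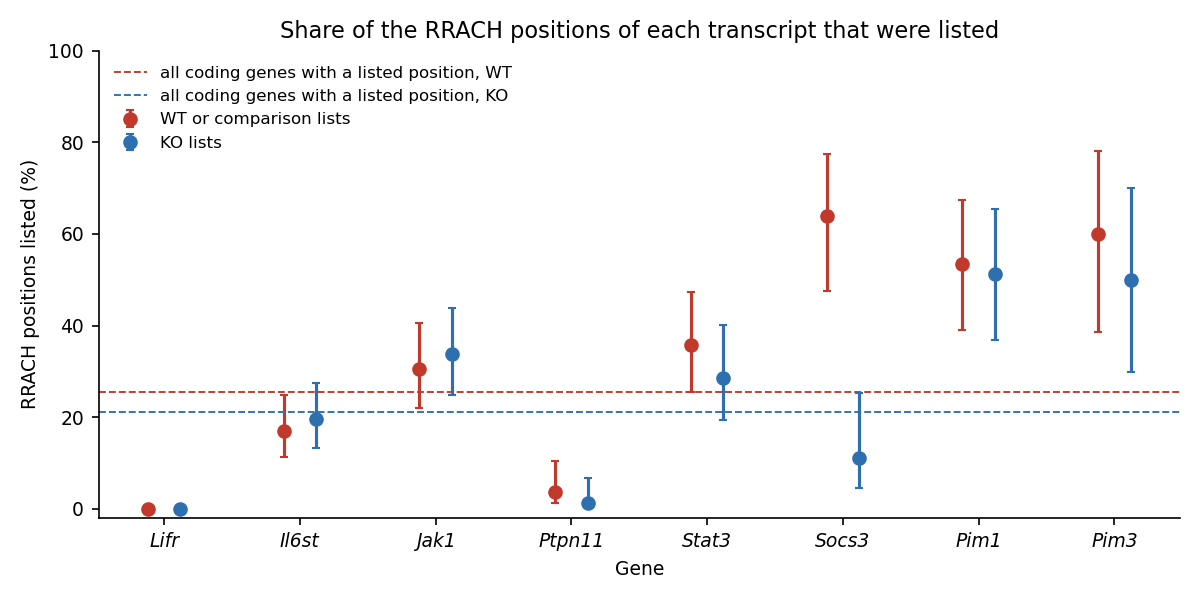
Share of the RRACH positions of each gene's transcript that were listed in WT or in a comparison (red) and in KO (blue), in percent, with 95% Wilson intervals for counts above 0; dashed lines give the shares over all coding genes with a listed position. Socs3 falls from 63.9% to 11.1%, whereas Pim1 stays at 53.5% and 51.2%.

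The share of positions in the last exon was higher at higher support, in the members as over the series. Of the 86 positions listed by 1 tool in WT or comparison lists, 56 lay in the last exon, 65.1% (54.6 to 74.3), against 47.9% over the series. Of the 18 with at least 3 tools, 17 did, 94.4% (74.2 to 99.0), against 72.0% of such positions on coding transcripts of the series. The one exception was the GGACT in exon 4 of Pim1, which was also the only one of the 18 within 100 nt of an exon junction. Over the series 24.8% of positions with that support lay so near to a junction. Socs3, where every listed position is in the last exon, supplied 11 of the 18. Of the 40 positions in KO lists only, 13 lay in the last exon and 26 within 100 nt of a junction, 32.5% and 65.0%, against 47.5% and 48.3% of such positions over the series. Il6st and Jak1 supplied 28 of these 40.

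Member positions were seldom close to the stop codon. Within 200 nt of its first base lay 17 of the 134 positions, 12.7% (8.07 to 19.4), against 22.6% over the series. They were spread over Il6st, Socs3 and Pim1 (4 each), Pim3 (3), and Jak1 and Stat3 (1 each). Of the 18 positions with at least 3 tools, 5 lay in that window, 4 of them in Socs3 and 1 in Pim1, a share of 27.8% (12.5 to 50.9) against 37.8% at that support over the series.

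All 174 positions lay in RRACH, but this is no trait of these genes. For its comparison of tools the paper kept only sites in that context, and 159786 of the 160430 positions of the series lay there. None of the 174 lay in an exon of another gene on the same strand. The commonest 5-mers in WT or comparison lists were GGACA (19), GGACT (18) and AGACT (17). GGACT made up 13.4% of the 134 positions, against 11.9% over the series, and 7 of the 18 positions with at least 3 tools, 38.9% against 29.6%. AGACT and the 5-mers that begin with GGAC together made up 15 of these 18, 83.3% against 81.0% over the series. The remaining 3 were GAACT in Stat3, GAACT 366 nt and AAACA 882 nt past the stop codon in Socs3. Of the 8 GGACT positions in no KO list, 2 were in Socs3.

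The listings of each gene in KO were set against those in WT, counting every tool at every position. Over 5699 genes with at least 10 WT or comparison positions, the median gene had 0.621 KO listings per WT listing (quartiles 0.447 and 0.809). Socs3 had 0.0847, and 96.1% of genes had a higher value. Il6st had 1.21, and 96.9% of genes had a lower one. Pim1 (0.574), Stat3 (0.767), Pim3 (0.812) and Jak1 (0.865) lay between. Genes of the same pathway thus lay towards both ends of the range, and among these 6 members the mean number of tools per WT position was highest in Socs3, at 2.57, and lowest in Il6st and Stat3, at 1.2 each, against a median of 1.5 over genes.

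**Figure D5:**
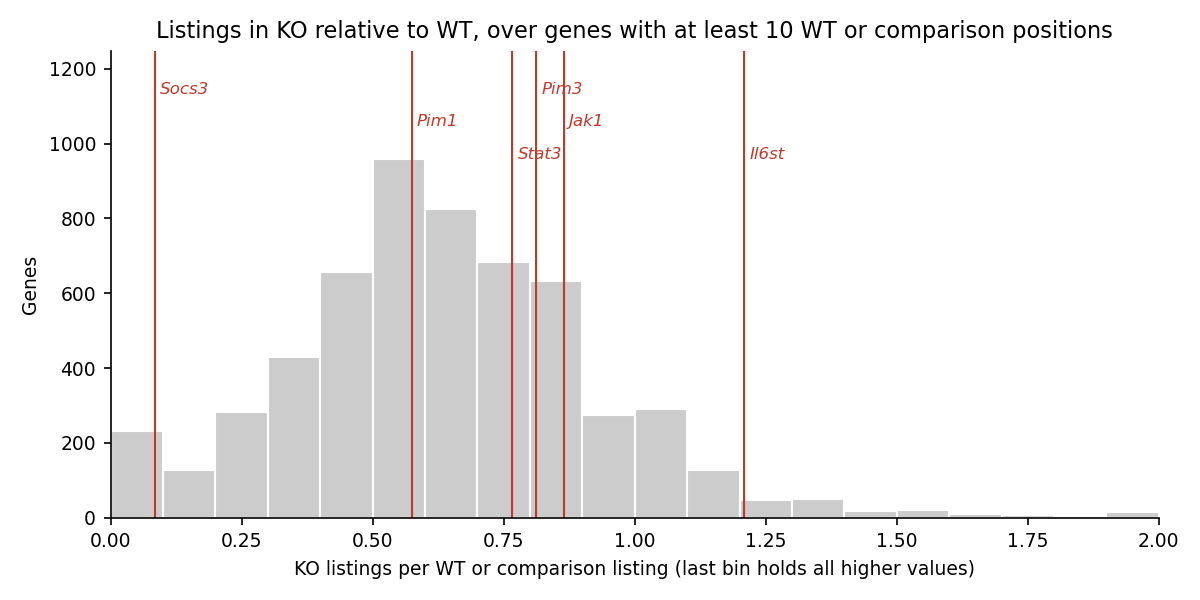
Histogram of KO listings per WT or comparison listing over 5699 genes with at least 10 WT or comparison positions, with the number of genes on the vertical axis and red lines at the members. Socs3 lies at 0.0847 in the lowest bin and Il6st at 1.21 in the upper tail, with the other members between 0.574 and 0.865.

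Of 48 further genes of the pathway, 40 had a listed position, with 628 positions in WT or comparison lists and 489 in KO lists. Whether 40 of 48 is many or few was not tested, since the share of all annotated genes with a listed position was not computed. In no KO list were 280 of the 628, 44.6%, near the 41.0% over all WT or comparison positions of the series. Among the 8 without a position were the cytokine Lif, the receptors Osmr, Cntfr and Il6ra, the transcription factors Stat5a and Stat5b, and the inhibitor Cish. A comparison list held 23 of the 628 positions, against 2.45% of WT or comparison positions over the series. They lay in 7 genes, among them Mcl1 (10 positions), Klf4 (4), Gab1 (2), Pias4 (2), Map2k1 (1) and Pias2 (1). The share of all genes with such a position was not computed. Mcl1, which guards against apoptosis, had 40 WT or comparison positions, every one of them also in a KO list. Klf4, a pluripotency factor downstream of Stat3, had 32, of which 17 were in no KO list.

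Of the 40 further pathway genes with a listed position, 9 were listed in 1 library only, 22.5% against 19.6% of 10912 genes over the series. Of the 34 with at least 10 listed positions, 5 were, all in WT, 14.7% against 4.65% of such genes. The genes named here were picked out after their values were seen. Ptpn6 (20 positions), Socs2 (15), Jak3 (11), Junb (11), Gbx2 (10) and Socs4 (7) had WT positions and no KO position. Jak2 had 8 KO positions and no WT position, and Tyk2 had 1 WT and 13 KO positions. Among the inhibitors of the Socs family, the WT and KO counts were 7 and 2 for Socs1, 21 and 11 for Socs5, 16 and 10 for Socs6, and 3 and 7 for Socs7. Read numbers are not in the lists, and their part in these counts was not tested.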

How the data were processed

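The authors basecalled native RNA reads of both libraries, aligned them to the GENCODE transcriptome of GRCm38 (mm10 per the labels), ran each tool, converted the sites to genome positions and deposited 17 lists. The methods name minimums of 5 reads per site (20 for m6Anet). In the paper a cut-off was set for each tool by its balance of precision and recall against published m6A sites. Whether the deposited lists follow these cut-offs is not given with them. The deposited values are positions only, with no count, score or coverage, so the depth per site and per sample is unknown. MINES takes input from Tombo, and several tools share a signal alignment, so tools are not independent.

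Exons, coding sequences and stop codons came from GENCODE M21, on each gene's coding transcript named by most lines. Of 325 lines that name a member transcript, 265 gave the transcript position that M21 gives, and the 60 lines of Pim1 were offset by 59 bases throughout, while genome positions are unaffected. 5-mers came from the RefSeq copy of GRCm38. Members, lists of genes and rules were chosen with earlier results of these data known. Named positions are up to 3 per gene with the most tools, ties in genomic order, and all comparison-list positions; pathway genes are named for a comparison-list position, with exceptions stated, and positions given by distance alone were picked after their values were seen. Some items that these rules name are not reported here. Alternatives were assignment by listed name, leaving out Tombo, MINES or Epinano, RRACH only, 1 site per line, joining within 5 bp, same-tool KO lists, other support limits, windows and transcripts. Scripts were tested on simulated positions. Python 3.11.15, numpy 2.4.6, pandas 2.3.3, scipy 1.17.1, pysam 0.24.0 and matplotlib 3.10.9 were used.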

Additional observations from a re-analysis of the deposited data

How the results depend on the processing

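Of 53 values recomputed for 8 results, 45 stayed within the interval of the main share or within 1.5 times the main count. Some of these 45 could not move, so the tally overstates how stable the results are. Every member position lies in RRACH and in exons of 1 gene only, so RRACH only and assignment by listed name returned the main values. Leaving out Tombo, MINES or Epinano could not change the count in comparison lists. Without the Tombo lists, KO positions fell to 54, the share in no KO list was 66.3% (53.0% over all positions of the series), and positions with at least 5 tools numbered 3. Without the Epinano lists, an alternative chosen after seeing the data, positions with at least 5 tools also numbered 3. Fewer lists were counted in both cases. Counted over tool and position pairs against the KO list of the same tool, the share absent from KO was 68.1% (55.5% over the series). Socs3 supplied 59 of the 218 WT or comparison listings of the members and 5 of their 131 KO listings. Neither this share nor that without the Tombo lists was computed without Socs3. Positions with at least 4 tools numbered 8 and with at least 6 tools 3, and a window of 400 nt around the stop codon held 30.6% of positions; these shifts follow from the looser or stricter limit. On leaving out Tombo, MINES or Epinano, the share in no KO list was 82.6% to 90.0% for Socs3 and 17.4% to 27.8% for Pim1. MINES listed no Pim1 position, so leaving it out could not change the share of Pim1. Joining within 5 bp, 1 site per line and the other transcript moved none of their results beyond these limits.

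No paired analysis was possible because each condition is 1 library. With no coverage in the lists, the number of reads behind a listed or missing position is unknown.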

Other observations

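Stat3 lines of the lists named 2 coding transcripts: 39 lines at 25 positions named one that encodes 770 amino acids, and 19 lines at 14 positions named one that encodes 722. Ptpn11 lines likewise named 2 coding transcripts, of 593 and 597 amino acids, with 6 and 2 lines.

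The genes whose counts over the 17 lists were most like those of Jak1 were Mef2d, Ticrr and Setd2, with cosine similarities of 0.994, 0.994 and 0.993 among 3026 genes with at least 20 listed positions. High values were common, since 378 of these genes exceeded 0.95.

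Runs of at least 5 equal bases lay within 10 bases of 9 of the 174 member positions, 5.17%, against 7.03% of all positions, and 3 of the 9 were in Pim1.

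Of 71 member positions listed in both libraries, 61 were listed by the same tool, 85.9% against 93.7% over the series. In Il6st this held for 4 of 10, and 6 were listed by different tools only.

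Among positions with at least 3 tools in WT or comparison lists, 12 of 18 member positions were in no KO list, 66.7% (43.7 to 83.7), against 26.3% over the series, and 10 of the 12 were in Socs3. Among those with 1 tool the share was 47.7% against 47.2%.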
